A study of Mus musculus with 3 samples.

Results

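The genes described here are 34 mouse genes for the neuronal cytoskeleton, the synapse and regulated secretion, read in embryoid bodies with a split Dido3 protein and in wild-type ones. They were chosen by name as a list of neuronal structural genes: 14 for the cytoskeleton and growth cone, 4 RNA-binding proteins, 8 for vesicle release, 5 for secretory granules and 3 for adhesion or receptors. All probes of these genes were taken from the scanner files. Of the 34, 33 were found by their symbol and Map2 by its transcript accession, since the array design uses the older symbol Mtap2. They have 52 of the 39429 probes. Probes that stood well above background on every array in at least 1 condition were kept, which left 46 of the 52 probes and 32 of the 34 genes. The whole comparison covers 20389 genes and 26318 probes.

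Embryonic stem cells that are grown in suspension gather into embryoid bodies, in which many cell types arise once the cytokine LIF, which holds stem cells undifferentiated, is withdrawn. Both groups were grown for 10 days in suspension without LIF, and the study labels them wild-type control and Dido3deltaCT+HADido3CT. The second group, called mutant+CT here, makes a Dido3 protein cut short at its C terminus and at the same time overexpresses the missing C-terminal region, encoded by exon 16. The name of the construct points to an HA tag on that region. Dido3 is the longest protein made from Dido1. Neither the truncation by itself nor the construct by itself was sampled, so the effects of the 2 cannot be told apart. The promoter that drives the construct and the number of cell clones are not given in the sources used here. Each condition has 3 biological replicates per the labels, and the RNAs of both conditions were hybridised together, replicate by replicate, to 3 two-colour arrays on 1 slide, with the dyes swapped on replicate 2.

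Neurons become recognisable when they switch on a set of genes that progenitors lack. Neuron-specific tubulin, microtubule-associated proteins and neurofilaments build the axon and dendrites, Hu and Rbfox proteins steer the splicing and stability of neuronal transcripts, SNARE proteins with their calcium sensors release synaptic vesicles, and granins fill the dense-core granules that carry peptides. Many of these genes are held silent outside neurons by the repressor REST, which binds a DNA element called RE1. In a bulk sample, fewer neurons and less of the RNA in each neuron cannot be told apart.

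Ratios are on the log2 scale, with mutant+CT divided by wild type, and are given for replicates 1, 2 and 3 in that order and then as mean ± SD. Levels are normalized log2 intensities of 1 probe, comparable between samples but not between genes. Ratios were tested against 0 with limma, and adjusted p-values are Benjamini-Hochberg values over all 20389 genes. No gene of the array passed an adjusted p of 0.05 (0% of genes), and so no member did. The smallest adjusted p of any gene was 0.0734, and the number of arrays limits the precision. At an unadjusted p under 0.05, 3211 genes passed (15.7%), 1367 lower (6.70%) and 1844 higher (9.04%). Of the 32 measured members 12 passed on the lower side (37.5%) and 5 on the higher side (15.6%). A separate-channel fit, which uses the levels rather than the ratios, called 2 members and 481 genes.

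Well above background were 68.1% to 78.5% of the spots, depending on the channel, and none was saturated. Several samples stood apart in ways that touch the members. The mutant+CT sample of replicate 1 had high levels of heart muscle genes: the median ratio of 10 cardiomyocyte markers was 3.79 on replicate 1 against -1.02 and -1.55 on replicates 2 and 3. The summed linear intensity of these markers ranged from 4405 to 82436 in mutant+CT and from 6646 to 9540 in wild type. The wild-type sample of replicate 2, the array with swapped dyes, had the lowest wild-type level for 25 of the 32 measured members (78.1%, against 36.2% of all genes). The wild-type sample of replicate 3 had the highest wild-type level for 26 of the 32 (81.25%, against 29.8% of all genes). The median ratio of the members was -0.48 with all arrays, -0.35 without replicate 1, -0.69 without replicate 2 and -0.31 without replicate 3.

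The ratios of the members lay on both sides of 0. Of the 32 measured, 13 were lower in mutant+CT on every array (40.6%, against 17.4% of all genes) and 8 were higher on every array (25.0%, against 20.3% of all genes), while 11 had both signs. On average 13 members were at least 2-fold lower, 6 were at least 2-fold higher and 13 lay within 2-fold. Their median ratio was -0.48, against -0.0025 for all genes. By array it was -0.63, -0.093 and -0.84. All 3 mutant+CT levels lay below all 3 wild-type levels for 6 members (18.8%, against 6.57% of all genes): Dcx, Stmn3, Scg2, Nefm, Syt1 and Vamp2. The reverse held for 3 members (9.38%, against 9.50% of all genes): Mapt, Nefh and Cplx1. These same 3 genes were at least 2-fold higher on every array (1.90% of all genes were), and 1 member, Dcx, was at least 2-fold lower on every array (0.991% of all genes were).

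**Figure D1:**
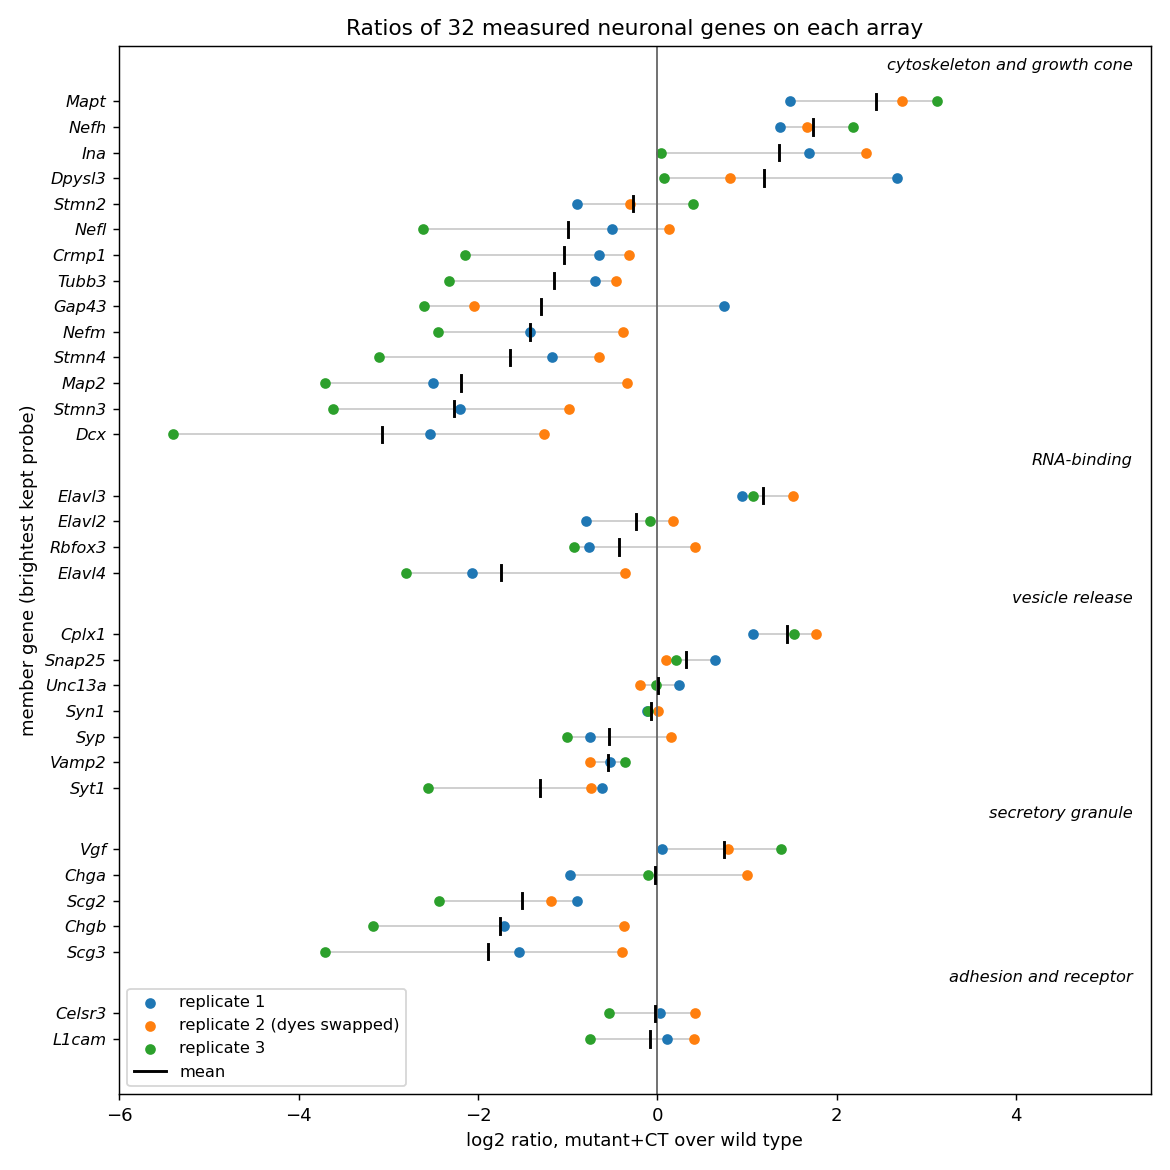
Ratio of mutant+CT to wild type on the log2 scale (x axis) for each of the 32 measured members (y axis, grouped by role); points are the 3 arrays, coloured by replicate, and the black tick is their mean. Of the 13 members that are lower on every array, all but Vamp2 spread widely with replicate 3 farthest from 0, while Mapt, Nefh, Cplx1 and Elavl3 lie to the right of 0 on every array.

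Among the 14 cytoskeletal members, 7 had a ratio below 0 and 4 a ratio above 0 on every array. Their median ratio was -1.10, with medians of -0.67, -0.33 and -2.39 by array and of -0.59 over replicates 1 and 2 alone. The lowest mean ratio of any member was that of Dcx, doublecortin, which stabilises microtubules in migrating young neurons. Its wild-type levels were 9.40, 7.30 and 11.58 and its mutant+CT levels 6.86, 6.03 and 6.18, so the groups did not overlap. In mutant+CT its probe, at chrX:140290854-140290913 in mm9, stood well above background on 1 array only. The ratios were -2.54, -1.27 and -5.40, with a mean of -3.07 ± 2.12 (SD, n = 3) and an adjusted p of 0.175, and on Agilent's processed signals the mean was -5.40 (adjusted p 0.0564). Stathmins bind tubulin dimers and loosen microtubules. Stmn3 had wild-type levels of 10.26, 8.20 and 11.45 and mutant+CT levels of 8.06, 7.21 and 7.84. Its ratios were -2.20, -0.99 and -3.62, with a mean of -2.27 ± 1.32 (SD, n = 3) and an adjusted p of 0.149, and the groups did not overlap. Stmn4, of the same family, had ratios of -1.18, -0.65 and -3.10 (-1.64 ± 1.29, SD, n = 3). Stmn2, the stathmin of growth cones, had ratios of -0.90, -0.30 and 0.39 (-0.27 ± 0.65, SD, n = 3), with both signs, and its levels overlapped.

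The microtubule-associated proteins Map2 and Mapt had ratios of opposite sign. Map2, the protein of dendrites, had wild-type levels of 10.24, 8.22 and 12.32 and mutant+CT levels of 7.74, 7.87 and 8.62, with ratios of -2.50, -0.34 and -3.71 (-2.18 ± 1.70, SD, n = 3, adjusted p 0.214). The wild-type value of replicate 2 lies below the mutant+CT value of replicate 3, so the groups overlap, although every array gave a ratio below 0. Mapt, which encodes the axonal protein tau, had the highest mean ratio of any member. Its probe lies at chr11:104189496-104189555 in mm9. Its wild-type levels were nearly the same in all samples, at 8.19, 8.26 and 8.34, and its mutant+CT levels were 9.67, 10.99 and 11.45. On Agilent's processed signals its wild-type levels were 7.36, 7.71 and 8.03. No sample overlapped between the groups, and replicate 1 gave the smallest difference. The ratios of 1.48, 2.72 and 3.12 average 2.44 ± 0.85 (SD, n = 3), 5.43-fold higher, with an adjusted p of 0.0941. Without replicate 1 the adjusted p of Mapt was 0.0356, at a ratio of 2.92. Array by array the ratio of Mapt exceeded that of Map2 by 3.99, 3.07 and 6.82, a description of 2 genes set side by side after their values were seen.

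Neurofilament genes had ratios of both signs. Neurofilaments are the intermediate filaments of axons, with a light, a medium and a heavy chain and alpha-internexin (Ina) as subunits. Nefm, the medium chain, had wild-type levels of 9.76, 8.89 and 10.41 and mutant+CT levels of 8.34, 8.50 and 7.96, which do not overlap. Its ratios were -1.41, -0.39 and -2.45 (-1.42 ± 1.03, SD, n = 3, adjusted p 0.218), from 10 spots per array. Nefl, the light chain, had ratios of -0.50, 0.14 and -2.61 (-0.99 ± 1.44, SD, n = 3), with replicate 2 just above 0. The heavy chain Nefh, read at chr11:4838758-4838817 in mm9, had levels of 7.49, 8.07 and 8.67 in wild type and 8.86, 9.74 and 10.85 in mutant+CT, higher on each array and with no overlap. Its ratios of 1.37, 1.67 and 2.18 average 1.74 ± 0.41 (SD, n = 3), 3.34-fold higher, with an adjusted p of 0.0901, the smallest of any member. For Ina the ratios were 1.69, 2.33 and 0.041 (1.35 ± 1.18, SD, n = 3, adjusted p 0.268). Ina was high on replicates 1 and 2 and level on replicate 3. Nefh and Nefm, which form 1 filament, differed in ratio by 2.78, 2.06 and 4.63 on the 3 arrays. This pair, too, was set side by side after its values were seen, and the difference is a description.

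**Figure D2:**
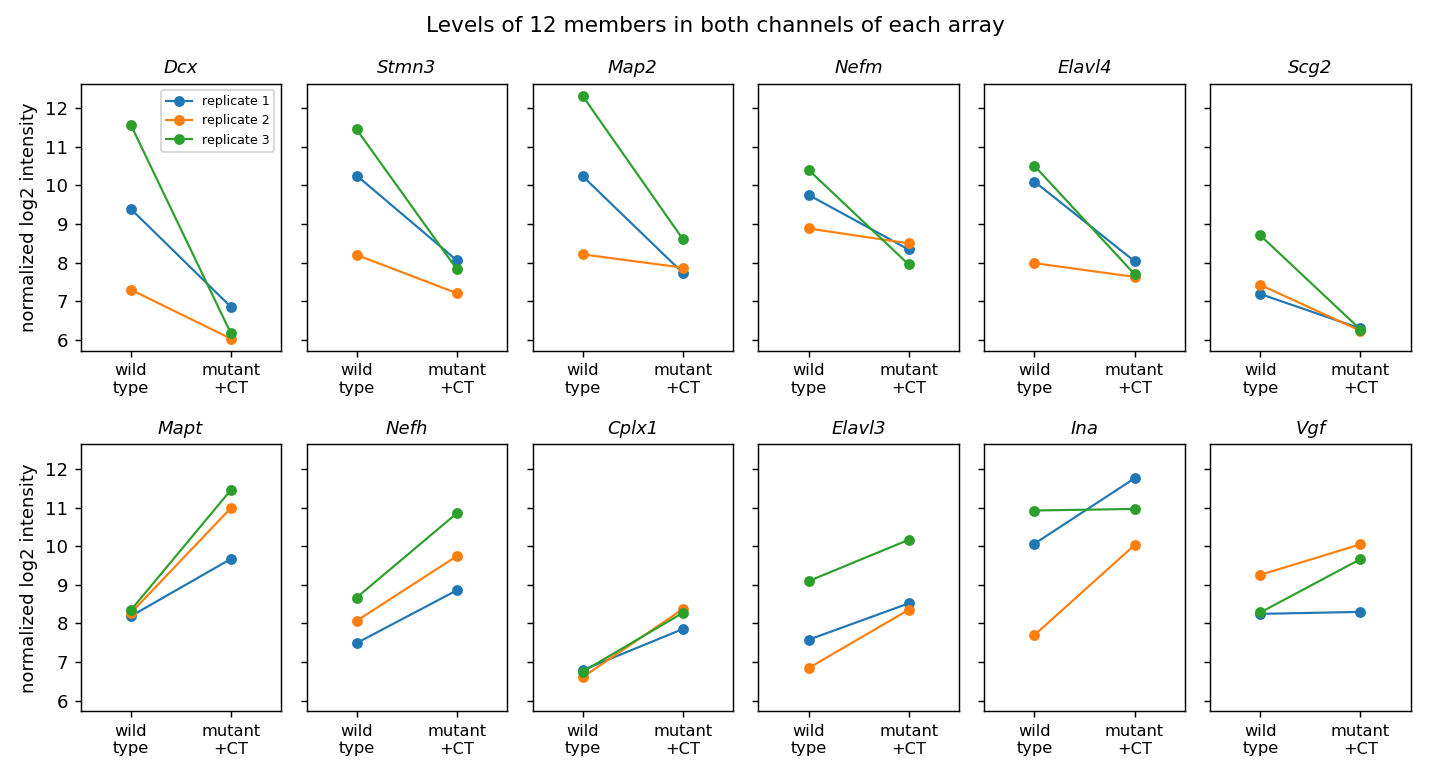
Normalized log2 intensity (y axis) in wild type and mutant+CT (x axis) for 6 members that were lower and 6 that were higher on every array; each line joins the 2 channels of 1 array, coloured by replicate. For Dcx, Stmn3, Map2 and Elavl4 the wild-type points are widely spaced, with replicate 2 lowest, and the mutant+CT points are closer together, whereas the wild-type points of Mapt and Cplx1 nearly coincide. On Agilent's processed signals, which are not scaled between arrays and not drawn, the wild-type levels of Mapt and Cplx1 lie farther apart.

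The remaining cytoskeletal members act at the growth cone or form neuronal microtubules. Tubb3, the tubulin used to recognise neurons, had wild-type levels of 9.86, 8.53 and 12.05 and mutant+CT levels of 9.17, 8.07 and 9.73. Its ratios were -0.69, -0.46 and -2.32 (-1.16 ± 1.01, SD, n = 3), lower on each array, but the levels overlapped. Crmp1, which links semaphorin signals to the growth cone, had ratios of -0.65, -0.32 and -2.14 (-1.04 ± 0.97, SD, n = 3). Its relative Dpysl3 had ratios of 2.67, 0.81 and 0.069 (1.18 ± 1.34, SD, n = 3), higher mainly on replicate 1. Gap43, a membrane protein of growing axons, had ratios of 0.74, -2.04 and -2.60 (-1.30 ± 1.79, SD, n = 3), above 0 on replicate 1 alone. Replicate 1 is the array on which mutant+CT had high cardiomyocyte marker levels, and the part of that in the values of Dpysl3 and Gap43 was not tested.

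Among the 4 RNA-binding members, 1 was lower and 1 higher on every array, both of them Hu proteins, and the median ratio was -0.33. Leaving out 1 array, that median lay between -0.64 and -0.11. The neuronal Hu proteins bind AU-rich stretches of transcripts and stabilise them. Elavl4 had wild-type levels of 10.10, 7.99 and 10.51 and mutant+CT levels of 8.04, 7.63 and 7.70, and its ratios were -2.06, -0.36 and -2.81 (-1.74 ± 1.26, SD, n = 3, adjusted p 0.203). Its wild-type level on replicate 2 lies within the mutant+CT range. Elavl3 was higher on every array, with wild-type levels of 7.58, 6.84 and 9.10 and mutant+CT levels of 8.52, 8.35 and 10.17. Its levels overlap between groups because replicate 3 is high in both, but the ratios of 0.94, 1.51 and 1.07 vary little (1.17 ± 0.30, SD, n = 3, adjusted p 0.127). Elavl2, with ratios of -0.80, 0.18 and -0.081, and Rbfox3, the antigen NeuN, with ratios of -0.76, 0.42 and -0.93, had both signs. Elavl2 averaged -0.23 ± 0.50 (SD, n = 3) and Rbfox3 -0.42 ± 0.73 (SD, n = 3).

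Most vesicle-release members lay near 0: of 7 measured, 2 were lower and 2 higher on every array (28.6% each), with a median ratio of -0.072. With no filter on dim probes, which adds Syt4, the median was -0.31. Syt1, the calcium sensor of fast release, had wild-type levels of 8.00, 7.59 and 9.49 and mutant+CT levels of 7.38, 6.85 and 6.93, with no overlap. Its ratios were -0.61, -0.74 and -2.56 (-1.31 ± 1.09, SD, n = 3, adjusted p 0.258), most negative on replicate 3, and the mean was -2.06 on Agilent's processed signals. Vamp2, the vesicle SNARE, gave a small difference with little spread: its ratios were -0.53, -0.75 and -0.36 (-0.54 ± 0.19, SD, n = 3, adjusted p 0.328), 1.46-fold lower, and its levels of 9.12, 9.55 and 9.33 in wild type and 8.58, 8.80 and 8.97 in mutant+CT did not overlap. Snap25, its partner in the target membrane, had ratios of 0.65, 0.097 and 0.21 (0.32 ± 0.29, SD, n = 3). Cplx1, complexin 1, clamps the assembled SNARE complex until calcium arrives. Its levels, at chr5:108947895-108947954 in mm9, were 6.79, 6.60 and 6.75 in wild type and 7.85, 8.37 and 8.27 in mutant+CT, clearly apart in all samples. On Agilent's processed signals its wild-type levels spread more, at 5.76, 5.60 and 6.80. The ratios of 1.06, 1.77 and 1.52 average 1.45 ± 0.36 (SD, n = 3), 2.73-fold higher, with an adjusted p of 0.102, and on Agilent's processed signals the mean was 2.58 (adjusted p 0.0446). In the separate-channel fit of limma, Cplx1 and Mapt had adjusted p-values of 0.0249 and 0.0274.

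The vesicle proteins synaptophysin and synapsin and the priming factor Unc13a had ratios of both signs. Syp had ratios of -0.76, 0.15 and -1.01 (-0.54 ± 0.61, SD, n = 3), Syn1 of -0.12, 0.0053 and -0.11 (-0.072 ± 0.068, SD, n = 3) and Unc13a of 0.25, -0.19 and -0.018 (0.013 ± 0.22, SD, n = 3). The probe of Syt4, a synaptotagmin of dense-core vesicles, stood well above background on 2 arrays in wild type and 1 in mutant+CT, too few to be kept, and gave -0.21, 0.068 and -1.91. For the adhesion proteins Celsr3, which guides axon tracts, and L1cam, which bundles axons, the ratios were 0.032, 0.42 and -0.53 (-0.027 ± 0.48, SD, n = 3) and 0.11, 0.41 and -0.75 (-0.079 ± 0.60, SD, n = 3), both signs in each. Gria2, a subunit of AMPA-type glutamate receptors, had 2 probes, which stood above background on at most 1 array in each condition. It therefore has no usable ratio.

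Secretory-granule genes had a median ratio of -1.51, the value of Scg2 itself, with -0.98, -0.37 and -2.44 by array and -0.97 without replicate 3. It was -2.52 on Agilent's processed signals, and -0.89 when probes had to be above background in both conditions, which drops Scg2. Of the 5, 3 were lower on every array and 1 was higher. Granins are acidic proteins that help to form the granule and are cut into peptides. Scg2, secretogranin II, is read at chr1:79431323-79431382 in mm9 and had wild-type levels of 7.19, 7.42 and 8.71 and mutant+CT levels of 6.29, 6.23 and 6.27. In mutant+CT its probe was not well above background on any array, so its fold is a bound: it was at least 2.79-fold lower, with an adjusted p of 0.159 and measured ratios of -0.89, -1.19 and -2.44. With Agilent's own background subtraction the ratio of Scg2 was -4.33 and its adjusted p 0.0242, against a measured ratio of -1.51 with the background correction used here. Chgb, chromogranin B, had wild-type levels of 9.24, 7.25 and 10.10 and mutant+CT levels of 7.53, 6.88 and 6.92. Its ratios were -1.71, -0.37 and -3.17 (-1.75 ± 1.40, SD, n = 3, adjusted p 0.23), and the wild-type sample of replicate 2 lay inside the mutant+CT range. Scg3, which holds granins at the granule membrane, had ratios of -1.54, -0.40 and -3.71 (-1.88 ± 1.68, SD, n = 3). On Agilent's processed signals the mean was -2.52 for Chgb and -2.69 for Scg3.

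Chga and Vgf did not follow those 3. Chromogranin A (Chga) had ratios of -0.98, 1.00 and -0.10 (-0.026 ± 0.99, SD, n = 3), below 0 on replicate 1 and above on replicate 2. Vgf, a granule protein induced by growth factors, had ratios of 0.051, 0.79 and 1.38 (0.74 ± 0.67, SD, n = 3, adjusted p 0.352), higher on each array but with overlapping levels. The difference between Vgf and Chgb, a pair likewise chosen after its values were seen, was 1.76, 1.16 and 4.55 on the 3 arrays.

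Promoters were available for 22 of the 34 members, from RefSeq on GRCm38.p6, in windows of 300 bases that start 250 bases before the transcription start. They were searched for TGACGTCA, the palindromic cAMP response element (CRE), and on both strands for the RE1 element, of which at least 16 of its 19 fixed letters had to match. The CRE letters were found in 3 of the 22 members (13.6%), against 549 of 27025 genes (2.03%), and RE1 in 3 of the 22 (13.6%), against 24 genes (0.0888%). The 5 promoters that held either are shown so that the matches can be seen in place. Each is the 250 bases upstream of the start, 5′ to 3′ on the strand of the gene, with the matches in capitals. Scg2 (chr1:79440027-79440276, minus strand) and Chgb (chr2:132781392-132781641, plus strand) hold the CRE letters 68 and 72 bases before the start. Syn1 (chrX:20920919-20921168, minus strand) holds RE1 first, 17 of 19 letters, and then the CRE letters. Celsr3 (chr9:108825795-108826044, plus strand) and Gria2 (chr3:80802836-80803085, minus strand, match on the opposite strand) hold RE1 with 16 and 17 of 19 letters.
Scg2: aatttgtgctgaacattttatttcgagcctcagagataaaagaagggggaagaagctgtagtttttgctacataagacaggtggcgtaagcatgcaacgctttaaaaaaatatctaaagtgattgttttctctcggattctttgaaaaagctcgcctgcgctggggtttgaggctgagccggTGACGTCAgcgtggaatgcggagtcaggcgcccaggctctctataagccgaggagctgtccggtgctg
Chgb: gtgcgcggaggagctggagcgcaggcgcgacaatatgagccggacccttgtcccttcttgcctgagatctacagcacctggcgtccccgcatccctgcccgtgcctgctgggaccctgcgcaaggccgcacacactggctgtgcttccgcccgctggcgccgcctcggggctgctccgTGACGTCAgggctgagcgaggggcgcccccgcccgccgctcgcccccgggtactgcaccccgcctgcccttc
Syn1: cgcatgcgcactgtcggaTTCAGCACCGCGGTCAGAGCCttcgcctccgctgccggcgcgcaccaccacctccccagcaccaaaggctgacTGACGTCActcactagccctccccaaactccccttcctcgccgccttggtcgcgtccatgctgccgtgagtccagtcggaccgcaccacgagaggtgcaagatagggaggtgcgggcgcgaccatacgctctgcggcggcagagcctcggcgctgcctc
Celsr3: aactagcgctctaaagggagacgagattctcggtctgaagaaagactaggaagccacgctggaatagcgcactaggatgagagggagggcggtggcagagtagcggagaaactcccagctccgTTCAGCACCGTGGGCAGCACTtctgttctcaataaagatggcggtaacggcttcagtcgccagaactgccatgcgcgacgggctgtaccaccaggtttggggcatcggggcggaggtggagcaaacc
Gria2: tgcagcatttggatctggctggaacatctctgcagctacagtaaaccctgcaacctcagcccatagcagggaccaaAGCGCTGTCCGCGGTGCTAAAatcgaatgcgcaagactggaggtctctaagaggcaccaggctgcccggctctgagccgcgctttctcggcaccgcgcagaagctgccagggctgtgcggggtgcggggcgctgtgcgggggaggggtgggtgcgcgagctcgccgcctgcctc

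Set against the ratios, the CRE letters occurred in 2 members that were lower on every array, Scg2 and Chgb, and in Syn1, whose mean ratio was -0.072. The 12 members without a promoter were not searched. They include Mapt, Nefh, Vgf, Snap25 and Dpysl3, which were higher on every array, and Nefm, Stmn4 and Vamp2, which were lower. The others were Gap43, Nefl, Stmn2 and Syt4. Matches therefore cannot be compared between higher and lower members. The members with RE1 letters had mean ratios of -0.072 (Syn1) and -0.027 (Celsr3) or no usable ratio (Gria2). A match describes letters only and says nothing of binding. Rest, the gene for the repressor itself, had wild-type levels of 10.60, 9.31 and 10.21 and mutant+CT levels of 13.44, 13.02 and 13.61, with no overlap. Its ratios were 2.84, 3.71 and 3.40 (3.32 ± 0.44, SD, n = 3; adjusted p 0.0734 among genes and 0.0435 in the fit of limma over all 26318 kept probes). Its second, dimmer probe had a mean ratio of 0.29. Of 11 genes for Rest and its partners, 5 were higher and 0 lower on every array. Among them Hdac1, a histone deacetylase, had the smallest p on the lower side, with a mean ratio of -0.32. Whether the level of Rest has a part in the members' values was not tested.

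Where a member had several kept probes they mostly pointed 1 way but differed in size. Of 11 such members, 10 had means of 1 sign over their probes, and none had a probe past 2-fold each way. Rbfox3 was the exception, at -0.42, 0.30 and 0.15. All 3 probes of Mapt were above 0 on every array: 2.44, 2.17 for a probe 66 bases upstream of the first, and 0.85 for one 3745 bases downstream. Both Nefh probes were, too, at 1.74 and 1.13. Map2 gave -2.18 and, 240 bases upstream, -2.04, but a dim probe 25403 bases upstream gave -0.10. Dcx gave -3.07 at its brightest probe and -0.27 at a dim one 5483 bases upstream, and its remaining probe was not above background on any array. Elavl4 gave -1.74 and -1.04, and Stmn4 -1.64 and -1.68. For Ina a probe 569 bases downstream of the first gave 0.075 where the first gave 1.35, and for Dpysl3 a probe 67 bases downstream gave 0.14 where the first gave 1.18. The values of Ina and Dpysl3 thus rest on 1 probe each.

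**Figure D3:**
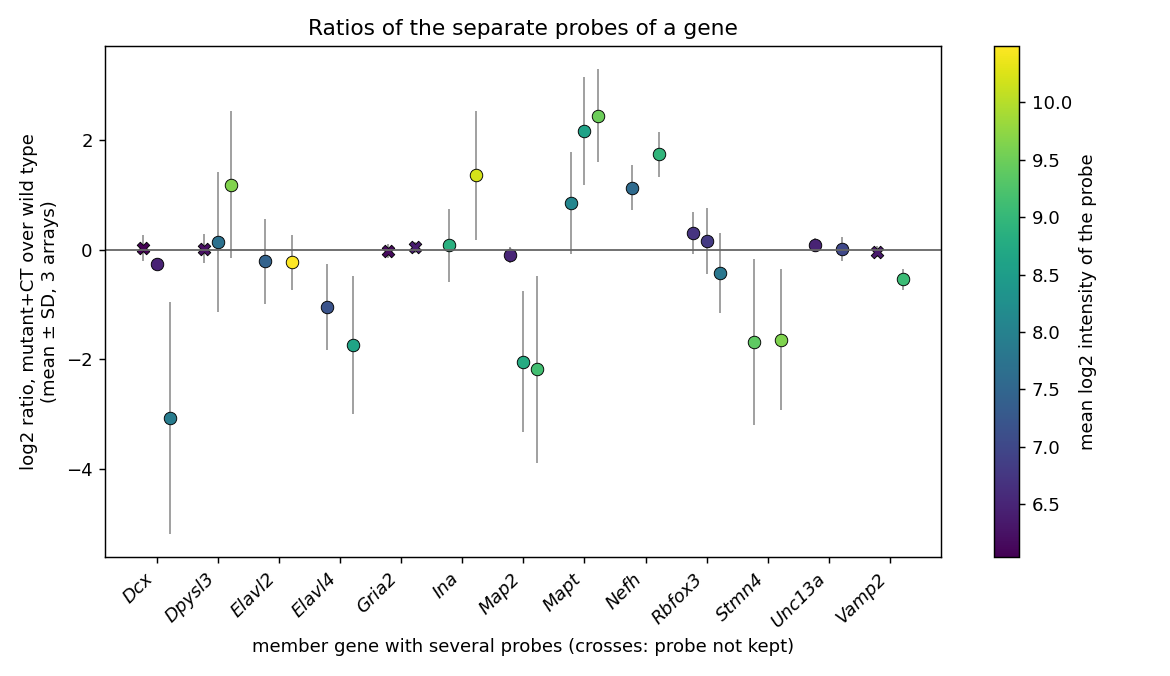
Mean ratio of mutant+CT to wild type on the log2 scale (y axis, bars SD over 3 arrays) of every probe of the members that have several probes (x axis); colour is the mean log2 intensity of the probe and crosses are probes that were not kept. The dim kept probes (dark) of Dcx and Map2 lie near 0, while all probes of Mapt and Nefh lie above 0.

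Fitted over all 26318 kept probes, where 115 probes passed an adjusted p of 0.05 (0.437%), no member probe did. The smallest adjusted p-values were those of Nefh (0.0695), Mapt (0.0726) and Cplx1 (0.0834). Under Agilent's processed signals, Cplx1, Nefh and Scg2 passed among genes, with adjusted p-values by limma of 0.0446, 0.0470 and 0.0242. The number of all genes called under that setting is given in the last section. The probe of Scg2 was not well above background in mutant+CT on any array. Its ratio under that setting therefore rests on background-level signal in mutant+CT.

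The lower members varied mainly between the wild-type samples. For all 13 members that were lower on every array the SD of the 3 wild-type levels exceeded that of the 3 mutant+CT levels (44.4% of all genes did so), with median SDs of 1.46 and 0.44. Over all genes the median SDs were 0.36 and 0.40. Neural progenitor markers showed the same trait: 12 of 15 varied more in wild type, with median SDs of 1.28 and 0.74. The 13 members were picked for ratios below 0, and in mutant+CT Dcx and Scg2 lay near background. The share of all genes is not matched for that. The wild-type level was highest on replicate 3 for 12 of the 13 and lowest on replicate 2 for 11 of the 13, against 29.8% and 36.2% of all genes. Of the 13, 12 had their most negative ratio on replicate 3, and 10 had the ratio nearest 0 on replicate 2. Over all genes, too, ratios spread most on replicate 3 (SD 1.02) and least on replicate 2 (0.74), with 0.77 on replicate 1. The share of all genes with these patterns was not counted. Wild type was labelled with Cy3 on replicate 2 alone, so dye and sample cannot be told apart there. On Agilent's processed signals 12 of these 13 members again varied more in wild type, and all 13 had their highest wild-type level on replicate 3. The 8 members that were higher on every array differed from these: 3 varied more in wild type, and their highest ratio fell on replicate 1, 2 or 3 in 2, 3 and 3 cases. Across the 32 members the ratios of 2 arrays correlated at 0.64 (replicates 1 and 2), 0.77 (1 and 3) and 0.79 (2 and 3), against 0.18, 0.54 and 0.38 over all 20389 genes (Pearson). The genes on an array share its dyes and RNA, and these values are given as a description.

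Other genes with the same functions were read from lists by role. Of 97 measured, 23 lay below 0 (23.7%) and 15 above 0 (15.5%) on every array, with a median ratio of -0.17. Over all genes these shares were 17.4% and 20.3%. At an unadjusted p under 0.05 by limma, 15 were lower (15.5%) and 7 higher (7.22%), against 6.70% and 9.04% of all genes. The 8 other neuronal RNA-binding proteins had a median of -0.47 (-1.64 on Agilent's processed signals), with 5 lower and 0 higher on every array. Nova1, a neuronal splicing factor, had a mean ratio of -1.76 ± 1.09 (SD, n = 3), and Celf4, also RNA-binding, of 0.090. A second kept probe of Nova1 gave -0.51, and one of Celf4 was higher on each array, at 0.97 ± 0.20 (SD, n = 3). The 16 granule genes had a median of -0.16, with 5 lower and 1 higher. Cpe, the carboxypeptidase that trims prohormones, was lower on each array, at -1.37 ± 0.34 (SD, n = 3), and the peptide gene Gal had 0.46. Among 27 vesicle-release genes, 6 were lower and 6 higher (22.2% each, median -0.064, or -0.28 without replicate 2). They lay between the active-zone protein Pclo at -1.19 (-0.086 at a second kept probe) and the synaptotagmin Syt9 at 0.97. Of 26 cytoskeletal genes, 4 were lower and 4 higher (15.4% each, median -0.33, or -0.12 without replicate 3). The axonal motor Kif1a had -0.97 and Camk2n1, an inhibitor of CaM kinase II, 1.14. Of 20 receptor and adhesion genes, 3 were lower (15.0%) and 4 higher (20.0%), with a median of -0.12. Nrcam, an L1-family adhesion protein, had -2.18 ± 0.29 (SD, n = 3; adjusted p 0.0735), and the GABA receptor subunit Gabra2 had 1.72.

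Relatives of the members with a wider range of expression were read beside them. Dpysl2, Dpysl4 and Cplx2 are also counted among the other neuronal genes above, so the 2 sets overlap. Of 18 measured, 1 was lower (5.56%) and 3 were higher (16.7%) on every array, with a median of -0.25. The one was Syt11, at -2.82 ± 0.70 (SD, n = 3). Large negative means with both signs were seen for Dpysl2 (-2.02), the intermediate filament Vim (-1.73) and Dpysl4 (-1.47). For Dpysl2 and Vim, replicate 1 was the array above 0, as for Gap43. The tubulins Tubb5 (-0.87), Tubb4b (-0.31), Tubb2a (-0.19) and Tubb6 (-0.032), the stathmin Stmn1 (-0.75) and the microtubule protein Map4 (-0.18) had both signs over arrays. So did Vamp3 (-0.43), Celsr1 (-0.32), Vamp8 (-0.047), Elavl1 (0.041) and Snap23 (0.056). Snap29 (0.27), Cplx2 (0.37) and Rbfox2 (0.97) were the 3 that were higher on each array. The 5 kept probes of Cplx2 disagreed: 4 averaged between 0.37 and 1.81, but 1 gave -1.22, with 0.47, -1.65 and -2.49 on the arrays. Another kept probe averaged -0.36 for Elavl1, -0.12 for Snap29 and -0.068 for Snap23, below 0 where the brightest was above. Syt7 was not kept.

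Markers of the cells that precede or accompany neurons were read in the same samples. Of the neural progenitor markers, 10 of 15 were lower and 1 was higher on every array, with a median ratio of -1.96. By array the medians were -1.49, -1.61 and -3.20. Their summed linear intensity ranged from 46376 to 113145 in wild type and from 11919 to 64013 in mutant+CT, and all 15 were above background in both. Vim, counted among the wider relatives too, weighs heavily in these sums. Its levels were 14.65, 15.04 and 15.48 in wild type and 15.54, 12.14 and 12.28 in mutant+CT. Within this list Prom1 had the smallest p on the lower side, at -1.73 ± 0.23 (SD, n = 3), and Notch1, a receptor that holds progenitors, had 2.60 ± 1.00 at its brightest probe and 0.0071 at a second kept one. For the members themselves the summed linear intensity ranged from 14676 to 54105 in wild type and from 17087 to 28284 in mutant+CT. Of 12 measured neurogenic transcription factors, 6 were lower and 1 was higher on every array, with a median of -0.98 (-0.44 without replicate 3). Among them Insm1, a factor of new neurons and endocrine cells, had -2.68 ± 1.53, and Eomes had 1.14 (0.42 at a second kept probe). What part a different number of progenitors or new neurons has in the members' values was not tested.

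Other cell types that use some of the same genes were read too. Neural crest and peripheral neuron markers had a median of -0.21 (0.16 without replicate 2), with 4 of 12 lower and 2 higher on every array, Pax3 at -1.16 and Foxd3 at 0.89. Their summed linear intensity was 3733 to 4505 in wild type and 2652 to 12221 in mutant+CT. Without Hand2, which the cardiomyocyte list holds too, the sums were 3029 to 3924 and 2536 to 3229; Hand2 was singled out after its values were seen. Endocrine markers had a median of -0.10, with 2 of 8 lower and 0 higher, and 7 of the 15 listed were not kept. The insulin gene Ins1 was at 0.29. The summed linear intensity of the endocrine list was 4865 to 6782 in wild type and 2335 to 3094 in mutant+CT. Glial markers had a median of -0.073, with 3 of 9 lower and 1 higher, Pdgfra at -1.06 and Aldh1l1 at 0.89, and sums of 6833 to 10974 and 4856 to 7337. Pdgfra weighs heavily in the wild-type sums, with wild-type levels of 12.25, 13.04 and 11.79. Sox10, 1 of the lower genes, is held by the neural crest list too. In the cardiomyocyte list 0 of 10 were lower and 1 was higher on every array, Myh7 at -0.47 and Myh6 at 1.74. The part of these cell types in the members' values was not tested.

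**Figure D4:**
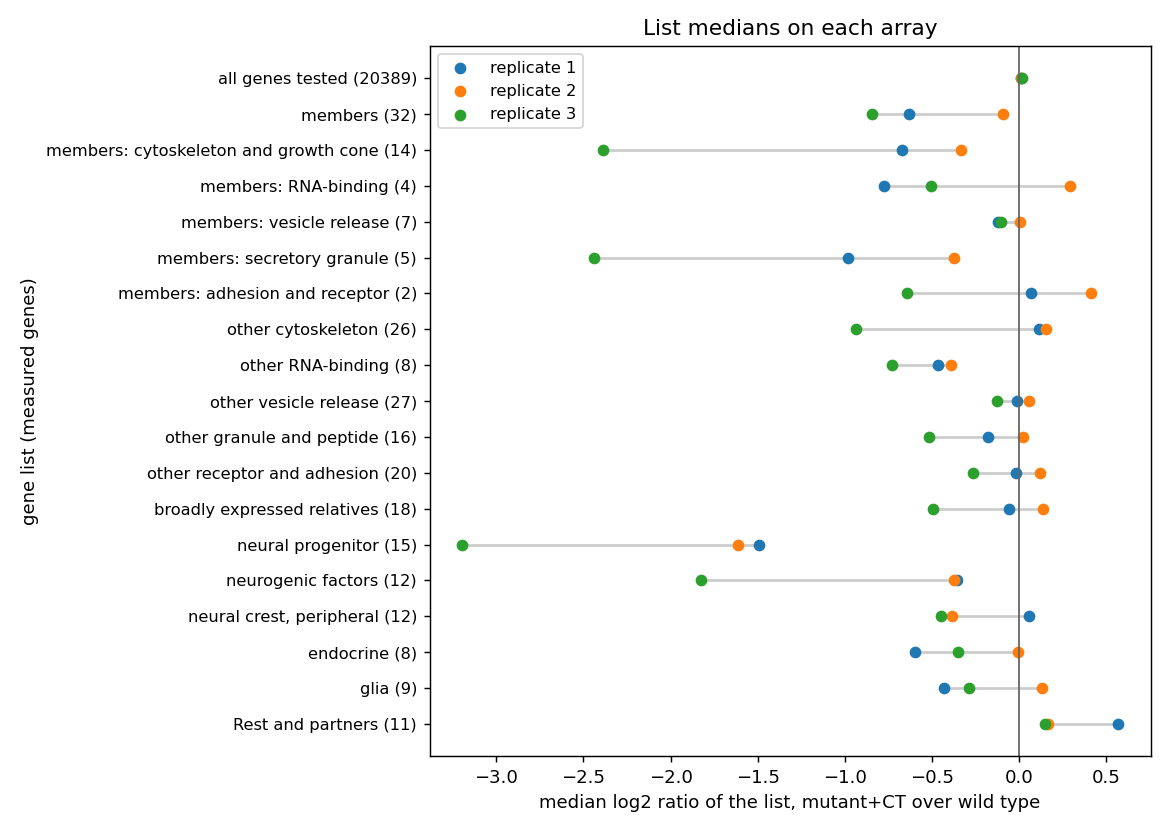
Median ratio of mutant+CT to wild type on the log2 scale (x axis) of each gene list on each array (points coloured by replicate; number of measured genes in brackets). The progenitor list and the granule and cytoskeletal members lie lowest on replicate 3, the vesicle-release lists and all genes lie near 0, and the cardiomyocyte list, at 3.79, -1.02 and -1.55, is not drawn.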

How the data were processed

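Agilent Feature Extraction (10.7.3.1), named in the file headers, wrote the deposited scanner files. Per the file headers, their intensity values are the mean brightness and the median local background of each spot in Cy3 and Cy5, beside Agilent's own processed intensities. A log10 ratio, red divided by green, is also deposited there and served to check direction. The authors' value table was deposited on the log2 scale. The submitters' processing notes name limma for it, and the steps and version are not given in the sources used here. The column medians are -0.02, 0.01 and -0.02, the direction is mutant+CT divided by wild type, and correlations with the ratios computed here are 0.994, 0.996 and 0.998.

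Ratios were computed in R 4.3.3 with limma 3.58.1: normexp with an offset of 50, loess within each array, control spots at weight 0, and 454, 234 and 507 outlier spots set to missing. Levels were taken per channel after quantile scaling of average intensities (Aquantile) and also, chosen after seeing the data, from Agilent's processed signals. Kept probes were well above background on every array in at least 1 condition, and the brightest of them stands for the gene. Genes were named by RefSeq accession (GRCm38.p6), otherwise by the file. Probe positions are mm9, per the file headers. The "at least" fold sets the bright group's mean against, per array, the higher of the lowest signal well above background and the dim probe's own. The mean ratio of each gene was compared with 0 by limma (eBayes), with Benjamini-Hochberg adjustment and a threshold of 0.05. The steps were tested on simulated data.

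The members and all lists were chosen with earlier results of these data known, so no test was made of a list. Named are every member, Rest, every widely expressed relative and, of each other list, the gene with the smallest p in each direction; 1 such gene is not reported here. The labels call the replicates biological and do not say whether they are separate cultures, so p-values measure the spread between these samples, which may be technical.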

Additional observations from a re-analysis of the deposited data

How the results depend on the processing

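The median ratio of the members kept its sign under every alternative run, between -0.69 and -0.31, and 11 to 19 members were lower and 6 to 10 higher on every array used. These ranges include runs that leave out 1 array, where signs had to agree on 2 arrays only, which is easier to meet. The share of all genes with such signs was not counted in the alternative runs, so the ranges do not measure strength. The number of genes called (0) was 290 on Agilent's processed signals, 12 with the filter applied in both conditions, 298 at an adjusted p of 0.1, 176 with a trended and robust prior, 481 in the separate-channel fit, and 0 to 147 leaving out 1 array (147 without replicate 1). Among the members these gave 3 calls on processed signals (Cplx1, Nefh and Scg2), 2 at an adjusted p of 0.1 (Nefh and Mapt), 2 in the separate-channel fit (Cplx1 and Mapt) and 0 to 1 leaving out 1 array (Mapt without replicate 1). Among member probes 5 were called on processed signals, 4 at an adjusted p of 0.1, 2 with the trended prior and 0 to 2 leaving out 1 array. How many of all probes were called in these runs was not counted, so the member probes have no share to be set against. Members near 0 turned sign: L1cam was 0.062 on processed signals, Chga 0.032 with median centring, Celsr3 0.013 with arrays scaled to the same spread, Rbfox3 0.0089 over all probes and Unc13a -0.02 in the deposited table. With a dye term Celsr3 was 0.085, Chga 0.23, L1cam 0.042 and Unc13a -0.038. Leaving out 1 array in turn, Celsr3 ranged from -0.25 to 0.23, Chga from -0.54 to 0.45, Elavl2 from -0.44 to 0.047, L1cam from -0.32 to 0.26, Stmn2 from -0.60 to 0.047 and Unc13a from -0.10 to 0.11. The cause was not tested. The dye term and the separate-channel fit give no counts by array, and the latter no probe count. The ratio of an array already pairs the RNAs of 1 replicate, so the fit of ratios is a paired one. Signal over background limits the dim probes.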
